A study of Mus musculus with 4 samples.

Results

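The genes described here are 10 chemokine genes of the mouse, Cxcl12, Cxcl14, Cxcl16, Cx3cl1, Cxcl9, Cxcl10, Ccl2, Ccl5, Ccl25 and Ccl17. Each was taken from 1000 bp upstream of its first transcription start site (TSS) to its end in build mm10 (GRCm38), and a CpG site was used only if at least 20 reads covered it in every tumor. Such qualified sites were found in 7 of the 10 genes, in the promoters of 7 and in the gene bodies of 6. They numbered 233, of 1081201 qualified sites in the whole genome. Cxcl9, Ccl2 and Ccl5 had none.

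Reduced representation bisulfite sequencing (RRBS) gave the methylation, as the percent of reads at each cytosine of a CpG that kept it through bisulfite, mostly in fragments dense in CpGs. The samples were 2 tumors of 344SQP, a parental mouse lung adenocarcinoma line, and 2 tumors of 344SQR, a line resistant to anti-PD1. All 4 tumors grew from cells injected under the skin of the leg of syngeneic female 129Sv/Ev mice aged 12 to 16 weeks, and every mouse was given anti-PD1 at 10 mg/kg, in 4 doses from day 4, with tumors taken 24 h after the last dose. No tumor without anti-PD1 was analysed here, each group stands on a single cell line, and the tumors came from separate mice. The deposited tables hold 116794455 and 138331886 CpG calls for replicates 1 and 2 of 344SQP, and 160548303 and 174689402 for replicates 1 and 2 of 344SQR. Each tumor is a mix of tumor cells and host cells, so a change within a cell type and a change in the share of cell types cannot be told apart.

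Chemokines are small secreted proteins that steer leukocytes through receptors with 7 membrane passes. Cxcl9 and Cxcl10 are induced by interferon and draw T cells and NK cells, Ccl2 draws monocytes, and Ccl5 draws T cells and myeloid cells. Promoters rich in CpGs are unmethylated in most tissues, and dense methylation of such a promoter goes with a silent gene, while methylation inside a gene body is common in active genes too. The question put to these data was whether methylation of these genes differed between the parental and the resistant tumors.

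A promoter was the window from 1000 bp upstream to 500 bp downstream of any TSS of the gene, and the gene body was the rest. The methylation level of a region in a tumor is the mean of the percentages of its sites. The lines were compared in 2 ways. In the first, the likelihood ratio of each site was combined over a region by Stouffer's z score, which treats each read as independent and does not count how tumors of a line vary. In the second, edgeR's quasi-likelihood test was run on the methylated and unmethylated reads of a region, which counts that variation. Both were adjusted over all promoters or over all gene bodies, with calls at an adjusted value (FDR) under 0.05. For a single value an exact permutation test of 2 tumors against 2 cannot give a p below 0.333.

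By the likelihood ratio and Stouffer's z score, the promoters of Cx3cl1 and Cxcl16 were lower in 344SQR tumors and that of Cxcl12 was higher, while 4 of the 7 measured promoters were not called. Among all 20135 promoters tested, 29.7% were called lower and 8.79% higher. With a tumor left out, the number called higher was smallest without replicate 2 of 344SQR and largest without replicate 2 of 344SQP. The gene bodies of Cxcl12, Ccl25 and Cxcl16 were called lower, 3 of 6 measured and none higher, beside 58.5% lower and 6.91% higher among all 18922 gene bodies. Without a block for replicate number, edgeR called none of the 7 promoters and none of the 6 gene bodies. At an unadjusted p under 0.05 it counted 0 promoters and 2 gene bodies, those of Cxcl12 and Ccl25, beside 8.79% of all promoters and 17.7% of all gene bodies. Over the whole genome edgeR called 0.0745% of promoters and 0.00529% of gene bodies, and both counts changed when a tumor was left out.

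The 2 tumors of 344SQR lay entirely below those of 344SQP in 3 of the 7 promoters (Cxcl16, Cx3cl1 and Ccl17) and in 3 of the 6 gene bodies (Cxcl12, Cxcl16 and Ccl25). The same held for 32.5% of all promoters and 49.4% of all gene bodies. No member lay entirely above, beside 7.58% of all promoters and 4.82% of all gene bodies. The median difference of the 7 promoters was −0.128 percentage points (344SQR minus 344SQP), and that of all promoters was −0.233 points. For the gene bodies the medians were −3.66 points over the 6 members and −3.12 points over all.

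**Figure D1:**
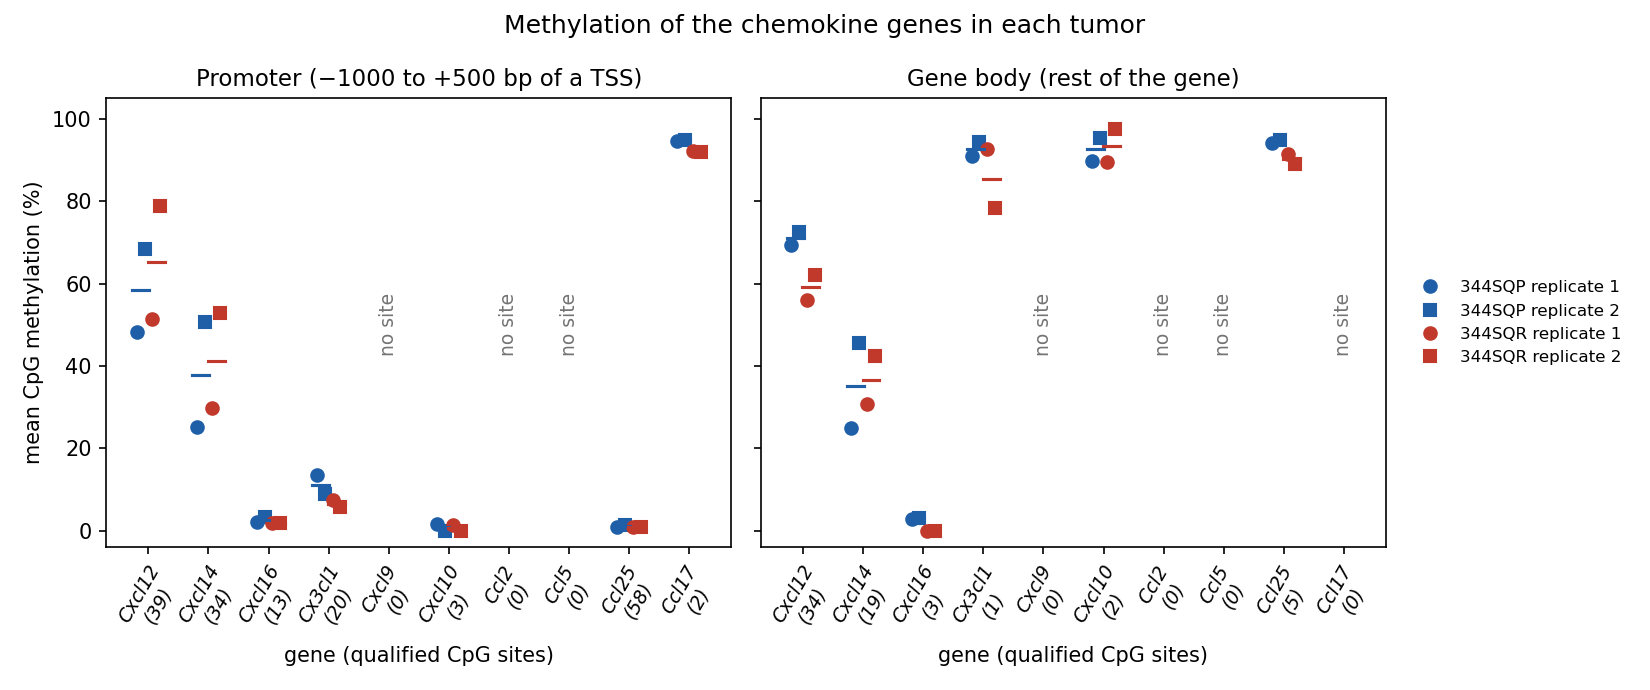
Mean CpG methylation (%, y axis) of each chemokine gene (x axis, with its number of qualified CpG sites) in the promoter (left) and the gene body (right). Each point is 1 tumor, blue for 344SQP and red for 344SQR, with circles for replicate 1 and squares for replicate 2, and the lines mark the mean of 2 tumors. The promoters of Cxcl12 and Cxcl14 spread most, with replicate 2 above replicate 1 in both lines, and the gene body of Cxcl12 was lower in both 344SQR tumors.

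Cxcl12 encodes a chemokine made by stromal cells that binds the receptor Cxcr4 and the scavenger receptor Ackr3. The gene (ENSMUSG00000061353) lies on the plus strand of chromosome 6 from 117168535 to 117181367. Its promoter held 39 qualified sites, all downstream of the first TSS, from 117168633 to 117169039, with 42 to 198 reads each. Promoter methylation was 48.3% and 68.4% in replicates 1 and 2 of 344SQP and 51.5% and 78.8% in replicates 1 and 2 of 344SQR. The lines overlapped, and the tumors of a line differed by more than the lines did, with replicate 2 above replicate 1 by 20.1 points in 344SQP and 27.4 points in 344SQR.

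The means of the Cxcl12 promoter were 58.4% ± 14.2 (SD, n = 2) in 344SQP and 65.1% ± 19.4 (SD, n = 2) in 344SQR. The difference of 6.78 points passed the likelihood ratio and Stouffer's z score (FDR = 2.12e-44) and was smaller than the SD of either line. edgeR gave a log2 odds ratio of 0.55 with an adjusted p of 0.871. Between tumors of the same replicate number 344SQR was above 344SQP, by 3.13 points in replicate 1 and 10.4 points in replicate 2. With a tumor left out, the sign of the difference rested on which tumors were compared. Without replicate 1 of 344SQP it was −3.25 points, and without replicate 2 of 344SQR it was −6.91 points. It was 16.8 points without replicate 2 of 344SQP and 20.5 points without replicate 1 of 344SQR.

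Replicate 2 was above replicate 1 in both lines at 34 of the 39 sites, among them 26 of the 27 in intron 1 and 2 of the 5 in the 5′ UTR. The mean over the 5 sites in the 5′ UTR was 67.1% and 65.5% in 344SQP and 51.7% and 88.9% in 344SQR. Over the 27 sites in intron 1 it was 44.5% and 69.4% in 344SQP and 51.5% and 76.4% in 344SQR. Of the 39 sites 17 were called higher and 1 lower, and at 3 sites the lines did not overlap. The site with the largest difference, at 117168875 on the minus strand in intron 1, was methylated at 28.1% (95% Wilson interval 21.4 to 35.9) and 51.7% (43.7 to 59.5) in 344SQP and at 49.0% (42.0 to 56.0) and 86.2% (80.5 to 90.4) in 344SQR. These intervals cover counting error only, since PCR copies of a molecule were not told apart.

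The Cxcl12 gene body went the other way. Over 34 sites with 20 to 188 reads each, methylation was 69.4% and 72.4% in the 344SQP tumors and 56.0% and 62.2% in the 344SQR tumors. Both 344SQR tumors were lower, and the lines did not overlap. The means were 70.9% ± 2.11 (SD, n = 2) and 59.1% ± 4.38 (SD, n = 2). The difference of −11.9 points exceeded both SDs and passed the likelihood ratio and Stouffer's z score (FDR = 8.84e-47), and it lay between −15.0 and −8.76 points when any tumor was left out. These SDs are of the whole gene body, in which replicate differences of opposite order, given below, offset each other. edgeR without a block for replicate number gave a log2 odds ratio of −0.70, with an adjusted p of 0.268 over all gene bodies.

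The sites of the gene body fell in 5 groups separated by more than 200 bp. The first, 17 sites in intron 1 from 117169127 to 117169527, continued the promoter and had a mean of 58.2% and 74.6% in 344SQP and 46.6% and 72.7% in 344SQR, so the lines overlapped. The other 4 groups, 17 sites from 117176269 to 117178413, lay in the 3′ UTR of the transcript whose exon 4 starts at 117176086. In a further transcript these bases are in intron 3, and the transcript that ends at 117175069 does not reach them. Their mean was 80.7% and 70.3% in 344SQP and 65.3% and 51.7% in 344SQR. Replicate 2 was thus below replicate 1 in both lines here, and above it in both lines in intron 1. Of these 17 sites 11 were called lower and none higher, and at 8 both 344SQR tumors lay below both 344SQP tumors.

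The largest difference at any site of the 10 genes was in that 3′ UTR, at 117177585 on the plus strand. Of 77 and 104 reads in 344SQP, 88.3% (95% Wilson interval 79.3 to 93.7) and 86.5% (78.7 to 91.8) were methylated, and of 93 and 79 reads in 344SQR, 34.4% (25.5 to 44.5) and 22.8% (14.9 to 33.2). The 344SQR tumors lay below the 344SQP tumors with intervals far apart, and the difference of −58.8 points passed the site test (FDR = 1.35e-14). The CpG at 117177597 was at 67.5% and 48.6% in 344SQP and at 22.6% and 7.41% in 344SQR, while the site at 117177707 was at 92.9% and 85.9% in 344SQP and at 89.3% and 66.1% in 344SQR. The reference bases that hold the first pair of CpGs are shown because they carry this difference, from the RefSeq genome GRCm38.p6, chr6:117177570-117177599, plus strand, with CG in capitals.
Cxcl12 3′ UTR: ttgtcctgtggcagcCGgctacagtctCGt

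**Figure D2:**
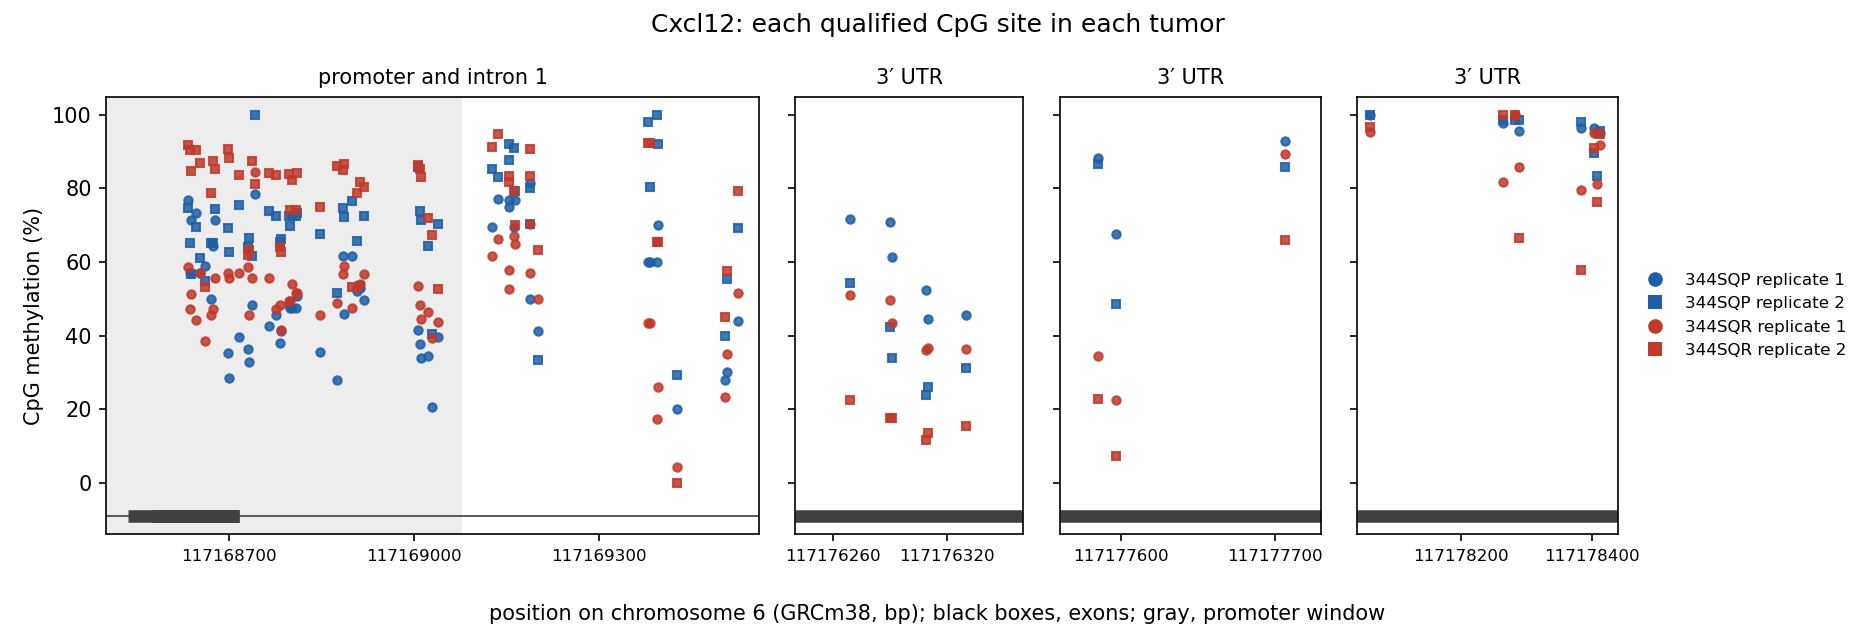
Methylation (%, y axis) of every qualified CpG site of Cxcl12 by position on chromosome 6 (x axis, GRCm38), with 1 point per tumor, blue for 344SQP and red for 344SQR, circles for replicate 1 and squares for replicate 2. Gray marks the promoter window and black boxes the exons. Squares lie above circles in both lines at 34 of the 39 promoter sites, and at 117177585 the 344SQR tumors were at 34.4% and 22.8% against 88.3% and 86.5% in 344SQP.

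Cxcl14, a chemokine made by many epithelia, also varied more between tumors of a line than between lines. The gene (ENSMUSG00000021508) lies on the minus strand of chromosome 13 from 56288643 to 56296551. Its promoter held 34 sites with 43 to 194 reads, from 330 to 669 bases downstream of the first TSS, and was methylated at 25.2% and 50.6% in 344SQP and at 29.7% and 52.8% in 344SQR. Replicate 2 was above replicate 1 in both lines at 30 of the 34 sites. The difference of 3.35 points was smaller than the SDs of 17.9 (344SQP) and 16.3 (344SQR). Without a block for replicate number it was not called (FDR = 0.709 by Stouffer's z score, adjusted p = 0.956 by edgeR). Between tumors of the same replicate number it was 4.50 points in replicate 1 and 2.19 points in replicate 2. Without replicate 2 of 344SQP it was 16.0 points, and without replicate 1 of 344SQR 14.9 points. It was −9.33 points without replicate 1 of 344SQP and −8.18 points without replicate 2 of 344SQR. With the first TSS only it was 1.69 points and not called.

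Single sites of Cxcl14 went both ways. In the promoter 6 were called higher and 3 lower, and the one with the largest difference, at 56296156 in the coding part of exon 1, was at 30.4% (20.8 to 42.1) and 62.7% (51.9 to 72.3) in 344SQP and at 50.0% (36.4 to 63.6) and 90.9% (81.6 to 95.8) in 344SQR. The gene body held 19 intronic sites, at a mean of 24.9% and 45.6% in 344SQP and 30.7% and 42.3% in 344SQR, and was not called (FDR = 0.494). It was called once a tumor was left out, at −9.09 points without replicate 1 of 344SQP, 11.7 points without replicate 2 of 344SQP, 9.04 points without replicate 1 of 344SQR and −4.50 points without replicate 2 of 344SQR. Under the other settings it lay between 0.346 points, at a minimum of 50 reads, and 3.40 points, with reads pooled. The site at 56295588 in intron 2 was at 23.7% (13.0 to 39.2) and 41.0% (27.1 to 56.6) in 344SQP and at 61.5% (45.9 to 75.1) and 67.7% (50.1 to 81.4) in 344SQR. It was covered by 31 to 39 reads, both 344SQR tumors lay above both 344SQP tumors, and the difference of 32.3 points passed the site test (FDR = 0.000785).

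Over all 233 sites of the members, 30 were called lower and 27 higher in 344SQR tumors. Among all qualified sites of the genome 18.4% were called lower and 6.04% higher. The sites called higher were mostly those of the Cxcl12 and Cxcl14 promoters, which held 23 of the 27. Sites of a region share reads and are not independent. With a tumor left out, the balance of lower and higher calls among these sites changed with the tumor. Member sites called higher were fewest without replicate 2 of 344SQR and most without replicate 1 of 344SQR, and the same held over the whole genome. Member sites called lower were fewest without replicate 2 of 344SQP and most without replicate 1 of 344SQP. Over the whole genome those called lower were fewest without replicate 2 of 344SQR and most without replicate 1 of 344SQR.

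Cx3cl1 and Cxcl16 encode the chemokines that are held in the membrane and released by the proteases Adam10 and Adam17, with the receptors Cx3cr1 and Cxcr6. Cx3cl1 (ENSMUSG00000031778, plus strand of chromosome 8, 94772009 to 94782427) had 20 promoter sites, read 22 to 147 times per tumor. The mean over them was 13.5% and 8.89% in 344SQP and 7.39% and 5.78% in 344SQR, so both 344SQR tumors were lower. The means were 11.2% ± 3.26 (SD, n = 2) and 6.59% ± 1.14 (SD, n = 2). The difference of −4.61 points passed Stouffer's z score (FDR = 0.000397) but not edgeR (log2 odds ratio −0.54, adjusted p = 0.776). Without replicate 1 of 344SQP it was −2.30 points and not called (FDR = 0.277), and at a minimum of 50 reads, which left 9 sites, it was −0.744 points (FDR = 0.0567). With the reads of the promoter pooled it was −1.82 points, and without replicate 2 of 344SQP −6.92 points.

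The difference in Cx3cl1 came from 6 sites just upstream of the TSS, from 94771921 to 94771967. Their mean was 41.8% and 26.5% in 344SQP and 23.2% and 16.7% in 344SQR. The 14 sites past the TSS were nearly unmethylated, at a mean of 0.914% and 1.43% in 344SQP and 0.487% and 1.41% in 344SQR over the 9 in the 5′ UTR, and at 2.18% and 1.14% in 344SQP and 0.903% and 0.550% in 344SQR over the 5 in the first coding exon. The site with the largest difference, 88 bases upstream of the TSS at 94771921, was at 42.9% (26.5 to 60.9) and 42.9% (28.0 to 59.1) in 344SQP and at 18.9% (10.6 to 31.4) and 20.5% (11.2 to 34.5) in 344SQR. These intervals overlap in part, at 28 to 53 reads per tumor, and the site passed the site test at FDR = 0.00900. The bases upstream of the TSS are shown because they hold these sites, from GRCm38.p6, chr8:94771859-94772008, plus strand, with CG in capitals. The 6 sites are strands of the last 4 of the CpGs, and the first pair had no qualified site.
Cx3cl1 upstream: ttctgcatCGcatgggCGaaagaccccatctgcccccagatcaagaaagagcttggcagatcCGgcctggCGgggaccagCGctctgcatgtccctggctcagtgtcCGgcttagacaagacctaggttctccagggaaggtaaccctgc

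**Figure D3:**
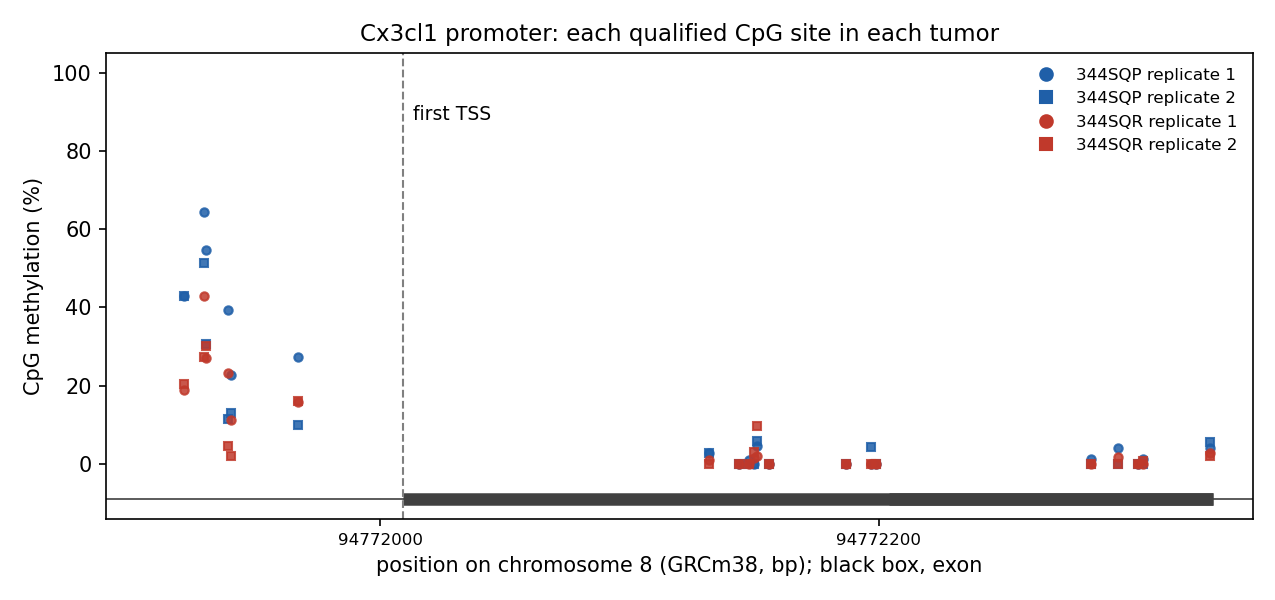
Methylation (%, y axis) of the 20 qualified sites of the Cx3cl1 promoter by position on chromosome 8 (x axis, GRCm38), with 1 point per tumor, blue for 344SQP and red for 344SQR, circles for replicate 1 and squares for replicate 2. The dashed line is the first TSS and the black box is an exon. Sites upstream of the TSS reached 64.3% in replicate 1 of 344SQP, and no tumor was above 9.72% past it.

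The single qualified site of the Cx3cl1 gene body, in the 3′ UTR at 94781145, was at 90.9% and 94.4% in 344SQP and 92.6% and 78.3% in 344SQR. The lines overlapped, and the difference of −7.23 points was called neither as a gene body (FDR = 0.0501) nor as a site (FDR = 0.110). It rested on replicate 2 of 344SQR, without which it was −0.0538 points, and it was −14.4 points and called without replicate 1 of 344SQR (FDR = 0.00134). With both strands of a CpG added it was 1.55 points, and at a minimum of 10 reads −2.64 points, neither called.

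Cxcl16 (ENSMUSG00000018920, minus strand of chromosome 11, 70453983 to 70459984) was nearly unmethylated. All of its qualified sites, 13 in the promoter and 3 in the gene body, were in its 5′ UTR and also inside Zmynd15, a gene that overlaps it, so they belong to both genes. The promoter was at 2.12% and 3.32% in 344SQP and 1.91% and 2.02% in 344SQR, over 24 to 194 reads per site. Both 344SQR tumors were lower, the difference was −0.754 points, and it passed Stouffer's z score (FDR = 0.0375) but not edgeR (adjusted p = 0.831). The difference was −1.35 points without replicate 1 of 344SQP. The call was lost without replicate 2 of 344SQP (−0.155 points, FDR = 0.713) and without replicate 2 of 344SQR (−0.811 points, FDR = 0.194). The site at 70459658 had the largest difference among the called sites, at 3.19% (1.09 to 8.97) and 3.15% (1.23 to 7.82) in 344SQP and 0% in both 344SQR tumors, where the upper bounds were 2.42% and 2.87%.

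The 3 sites of the Cxcl16 gene body, 509 to 533 bases downstream of the TSS and just past the promoter window, were at 2.86% and 3.23% in 344SQP and at 0% in both 344SQR tumors. No tumor had more than 2 methylated reads at any of them. The nearest promoter site, at 70459489, was at 2.86% and 0% in 344SQP and at 0% and 5.26% in 344SQR. All 3 gene body sites had the same coverage, 24 and 38 reads in replicates 1 and 2 of 344SQR, and the upper Wilson bounds of a count of 0 at a site are 13.8% and 9.18%. The difference of −3.04 points was called (FDR = 0.0126), and none of the 3 sites was called on its own. It was not called by edgeR (adjusted p = 0.334), nor without either 344SQP tumor (FDR = 0.111 and 0.0722) or without replicate 2 of 344SQR (FDR = 0.115). At a minimum of 10 reads it was −0.782 points and not called (FDR = 0.0589).

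Ccl25, which guides T cells in the thymus and the small intestine through Ccr9, had an unmethylated promoter and a methylated body. The gene (ENSMUSG00000023235) lies on the plus strand of chromosome 8 from 4325210 to 4360020. Its promoter had the most sites, 58 with 80 to 275 reads, all around the first of its 2 separate TSS, and was at 0.834% and 1.36% in 344SQP and 0.926% and 1.01% in 344SQR. These levels differed by less than the SD of the 344SQP tumors and were not called (FDR = 0.867), and the difference of −0.128 points was 0.133 points without replicate 2 of 344SQP and −0.390 points without replicate 1. All 58 sites also lie in the gene or the promoter of Elavl1. The called site, at 4325075, was at 5.75% (2.48 to 12.8) in replicate 2 of 344SQP and at 0% in the other 3 tumors.

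The body of Ccl25 held 5 intronic sites, at a mean of 94.2% and 94.9% in 344SQP and 91.4% and 89.1% in 344SQR. Both 344SQR tumors were lower. The means were 94.6% ± 0.489 (SD, n = 2) and 90.3% ± 1.68 (SD, n = 2), and the difference of −4.29 points exceeded both SDs. It passed Stouffer's z score (FDR = 3.04e-09) and was between −5.47 and −3.10 points when any tumor was left out. It was −2.25 points with both strands of a CpG added and −7.24 points at a minimum of 50 reads, called in both. However, edgeR without a block for replicate number did not call it (log2 odds ratio −1.44, adjusted p = 0.216). A CpG in intron 2 read on both strands carried most of it. On the plus strand, at 4328772, it was at 96.2% (91.5 to 98.4) and 96.3% (92.6 to 98.2) in 344SQP and at 87.5% (82.2 to 91.4) and 78.2% (72.3 to 83.2) in 344SQR. On the minus strand, at 4328773, it was at 91.5% and 96.1% in 344SQP and at 84.7% and 78.6% in 344SQR. At 4352646, the intronic site farthest from the first TSS, the order was the opposite, with 87.2% and 82.6% in 344SQP and 91.5% and 93.3% in 344SQR. This site was not called.
Ccl25 intron 2, chr8:4328757-4328786, plus strand, CG in capitals: cccccctggtcccctCGtcctggtcttgtc

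Ccl17, which draws T cells that carry Ccr4, had 2 promoter sites and none in the gene body. The gene (ENSMUSG00000031780) is on the plus strand of chromosome 8 from 94810453 to 94812036, and the sites lie at −939 and −873 of the TSS. Methylation was 94.6% and 94.8% in 344SQP and 92.1% and 91.8% in 344SQR, over 86 to 226 reads per site. The tumors of each line lay close together, with SDs of 0.105 (344SQP) and 0.174 (344SQR), and both 344SQR tumors were lower. The difference of −2.75 points was larger than these SDs, but neither test called it (FDR = 0.402, adjusted p = 0.866 by edgeR). The site at 94809514 was at 91.9% and 96.8% in 344SQP and at 88.1% and 87.4% in 344SQR, and at 94809580 the lines overlapped.

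Cxcl10 had qualified sites, unlike Cxcl9, the other member described above as induced by interferon. The gene (ENSMUSG00000034855) lies on the minus strand of chromosome 5 from 92346638 to 92348889, within the span of Art3. Its 3 promoter sites, 14 to 41 bases past the TSS in the 5′ UTR, had 20 to 65 reads and were at 1.67% and 0% in 344SQP and 1.54% and 0% in 344SQR. In the tumors at 0% each site had 40 reads (344SQP) and 36 reads (344SQR), with upper Wilson bounds of 8.76% and 9.64%. The difference of −0.0641 points was not called (FDR = 0.735), and under the alternatives it lay between −0.897 points without replicate 2 of 344SQP and 0.705 points without replicate 2 of 344SQR, never called. Its 2 body sites, in the coding part of exon 3, were at 89.7% and 95.3% in 344SQP and 89.4% and 97.4% in 344SQR, and the body was not called (FDR = 0.751). Its difference of 0.847 points was −1.95 points without replicate 1 of 344SQP and −3.16 points without replicate 2 of 344SQR. It was called at 4.85 points without replicate 1 of 344SQR (FDR = 0.0295) and at 5.17 points with a minimum of 10 reads (FDR = 0.0384). The 2 body sites were called in opposite directions. At 92347820 methylation was 85.2% (76.3 to 91.2) and 93.2% (87.2 to 96.5) in 344SQP and 96.9% (92.2 to 98.8) and 98.3% (93.9 to 99.5) in 344SQR, and at 92347853 it was 94.3% and 97.5% in 344SQP and 81.9% and 96.5% in 344SQR.

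Ordered by promoter level, Ccl17 stood highest, above 91% in every tumor, followed by Cxcl12 and Cxcl14, and then Cx3cl1, Cxcl16, Ccl25 and Cxcl10. The tumors of Cxcl12 and Cxcl14 overlapped, with 48.3% the lowest for Cxcl12 and 52.8% the highest for Cxcl14. Cxcl16, Ccl25 and Cxcl10 lay between 0% and 3.32% in every tumor, and Ccl25 and Cxcl10 did not differ beyond the spread of the Cxcl10 tumors.

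No site of Cxcl9, Ccl2 or Ccl5 qualified, also not at a minimum of 10 reads. The highest coverage of any listed site was 10 reads in Cxcl9, 9 in Ccl5 and 3 in Ccl2, so their methylation was not analysed here. Their promoter windows hold few CCGG, the site cut by the enzyme MspI that RRBS libraries are usually made with (the enzyme used is not given in the sources used here). The window of 1501 bases around the first TSS held 25 CpGs in Cxcl9 and 11 each in Ccl2 and Ccl5, with 0 CCGG in Cxcl9 and 1 each in Ccl2 and Ccl5. In members with sites it held 26 CpGs and 4 CCGG in Cxcl10 and 14 CpGs and 3 CCGG in Ccl17, and where sites were many it held 91 CpGs in Cxcl12, 82 in Cxcl14 and 144 in Ccl25, with 7, 6 and 17 CCGG. The median over all 55375 promoters of this length was 19 CpGs, and 70.9% held a CCGG on either strand. The gene bodies held 3 CCGG in Cxcl9, 1 in Ccl2 and 2 in Ccl5. The body of Cxcl10 also held 3, and it had 2 qualified sites. Why Cxcl9, Ccl2 and Ccl5 had no qualified site was not tested. The 150 bases before the first TSS are shown on the strand of the gene for Cxcl12 and for the members without sites, to let their CpGs (CG in capitals) be compared, all from GRCm38.p6. They are chr6:117168385-117168534 for Cxcl12, chr5:92328080-92328229 for Cxcl9, chr11:82035421-82035570 for Ccl2 and chr11:83530519-83530668 for Ccl5, and they hold 12, 2, 2 and 0 CpGs.
Cxcl12, plus strand: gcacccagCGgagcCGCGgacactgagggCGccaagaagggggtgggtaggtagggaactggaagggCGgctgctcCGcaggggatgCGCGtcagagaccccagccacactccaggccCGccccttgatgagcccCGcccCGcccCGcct
Cxcl9, minus strand: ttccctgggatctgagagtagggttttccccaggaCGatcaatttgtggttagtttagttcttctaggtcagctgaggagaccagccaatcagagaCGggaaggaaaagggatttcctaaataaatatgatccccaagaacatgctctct
Ccl2, plus strand: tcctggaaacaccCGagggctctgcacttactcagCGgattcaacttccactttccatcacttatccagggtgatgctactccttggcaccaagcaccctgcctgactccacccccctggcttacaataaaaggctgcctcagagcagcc
Ccl5, minus strand: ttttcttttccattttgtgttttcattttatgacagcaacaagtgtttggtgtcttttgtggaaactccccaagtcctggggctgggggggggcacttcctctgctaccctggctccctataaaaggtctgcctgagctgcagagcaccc

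The same windows were searched on both strands for the core of the interferon-stimulated response element (GAAA, any 2 bases, GAAA) and for the kappaB consensus of NF-kB. The interferon core was in Cxcl10, from −213 to −204 of the TSS, and in Cxcl14, from −172 to −163, and in 19.4% of all promoters. The kappaB consensus was in Cxcl10 (3 matches, 2 of them overlapping), Ccl25 (2), Cxcl16 (1) and Ccl5 (1), and in 25.9% of all promoters. Neither was found in Cxcl12, Cx3cl1, Cxcl9, Ccl2 or Ccl17. A match is a match of letters only, and no qualified site lay within one.

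Of 28 other chemokine ligands, 9 had a qualified promoter site. By Stouffer's z score 3 were lower (Cxcl2, Ccl1 and Cxcl3), none was higher and 6 were not called, with a median difference of −2.36 points. Among all promoters 29.7% were lower and 8.79% higher, with a median of −0.233 points. The median level of the 9 was 38.9% and 63.0% in 344SQP and 42.9% and 54.7% in 344SQR. That of all promoters was 3.12% and 3.34% in 344SQP and 2.54% and 2.56% in 344SQR, so the median differences are not at like levels. edgeR called 0 of the 9 and counted 1, Cxcl2, at an unadjusted p under 0.05, beside 8.79% of all promoters. Cxcl2, which draws neutrophils, was at 35.6% and 51.0% in 344SQP and at 11.5% and 21.1% in 344SQR over 5 promoter sites with 43 to 209 reads. Both 344SQR tumors were lower, by a mean of −27.0 points (FDR = 2.31e-35), and edgeR gave a log2 odds ratio of −1.74 with an adjusted p of 0.545. Ccl1 was at 78.8% and 63.0% in 344SQP and 60.9% and 54.7% in 344SQR over 2 sites. Cxcl11, another interferon-induced ligand of Cxcr3, was highly methylated in all tumors, at 95.3% and 97.9% in 344SQP and 96.3% and 92.2% in 344SQR over 9 sites, and was not called. Ccl1, Cxcl3 and Cxcl11 were named after their values were seen.

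Of 23 chemokine receptors, 8 had a qualified promoter site, and all 8 had a lower mean in 344SQR, as did 67.7% of all promoters. Of these, 5 were called lower (Cxcr4, Ccr10, Ackr2, Ccr4 and Cxcr2), none was called higher, and the median difference was −8.05 points, beside 29.7% called lower and a median of −0.233 points among all promoters. The levels were unlike, so the 2 medians are not directly comparable. The median level of the 8 was 51.0% and 56.9% in 344SQP and 44.4% and 42.2% in 344SQR. That of all promoters was 3.12% and 3.34% in 344SQP and 2.54% and 2.56% in 344SQR. edgeR called 0 of the 8 and counted 1, Cxcr4, at an unadjusted p under 0.05, beside 8.79% of all promoters. The receptors of the measured members were covered in part. Cxcr4, the receptor of Cxcl12, was at 17.7% and 23.3% in 344SQP and at 5.87% and 9.83% in 344SQR over 10 sites with 38 to 192 reads, a difference of −12.6 points (FDR = 4.62e-26, adjusted p = 0.458 by edgeR). Ackr3, its other receptor, was at 13.0% and 10.1% in 344SQP and 14.5% and 2.59% in 344SQR over 3 sites, and was not called. Ccr4, the receptor of Ccl17, was at 92.3% and 90.5% in 344SQP and 90.1% and 76.7% in 344SQR over 2 sites. Ccr9, Cxcr6, Cx3cr1 and Cxcr3 had no qualified promoter site.

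Ccr10, a receptor of skin-homing T cells, was at 7.68% and 18.5% in 344SQP and at 6.04% and 3.90% in 344SQR over 11 sites with 27 to 201 reads, a difference of −8.10 points (FDR = 2.63e-08). Ackr2, a scavenger of inflammatory CC chemokines, was at 90.8% and 91.1% in 344SQP and at 86.8% and 74.6% in 344SQR over 5 sites, a difference of −10.2 points (FDR = 1.49e-12). In both genes the 344SQR tumors lay below the 344SQP tumors, and edgeR gave adjusted p-values of 0.614 and 0.642. Adam10 and Adam17, the proteases that release Cx3cl1 and Cxcl16, were unmethylated, between 0.814% and 1.48% in every tumor over 82 and 33 promoter sites. Dpp4, a peptidase that trims chemokines, had no qualified promoter site. Ackr3, Ccr4, Cxcr2, Adam10 and Adam17 were named after their values were seen.

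Markers of the cell types that a tumor can hold were measured at their promoters in the same way, which gives no level of expression. The calls in these lists stand beside 29.7% of all promoters called lower and 8.79% called higher. Of 15 leukocyte genes 5 had a site, and their median methylation was 52.7% and 75.8% in 344SQP and 36.2% and 28.6% in 344SQR, with 3 called lower and none higher. Adgre1, the macrophage marker F4/80, was at 65.9% and 78.3% in 344SQP and at 36.2% and 9.23% in 344SQR at its only site, and Cd3e was at 81.1% and 75.8% in 344SQP and at 81.5% and 46.6% in 344SQR over 2 sites. Coro1a, with 33 of the 41 sites of the list, was at 18.4% and 25.2% in 344SQP and at 18.1% and 28.6% in 344SQR, and Spi1 was at 43.8% and 88.5% in 344SQP and at 36.2% and 83.1% in 344SQR at 1 site. Neither was called, and both were named after their values were seen. Ptprc, Cd3g, Cd8a, Cd4, Cd79a, Itgam, Csf1r, Laptm5, Itgb2 and Cd52 had none.

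Of 8 epithelial genes 7 had a site, with medians of 7.58% and 6.04% in 344SQP and 7.00% and 5.83% in 344SQR. The mean was lower in 4 and higher in 3 (Epcam, Cldn7 and Esrp1, named after their values were seen). Of the 7, 3 were called lower and none higher, with Cldn4 at 39.8% and 30.7% in 344SQP and 35.5% and 16.7% in 344SQR and Krt19 at 12.2% and 3.34% in 344SQP and 7.00% and 1.94% in 344SQR. Of 8 fibroblast genes 4 had a site, with medians of 24.1% and 26.7% in 344SQP and 20.9% and 29.6% in 344SQR, with 1 called lower and 1 higher. Col1a2 was at 20.8% and 25.7% in 344SQP and 18.0% and 14.4% in 344SQR, and Col1a1 was at 90.0% and 100% in 344SQP and 81.4% and 96.1% in 344SQR. The gene called higher was Pdgfra, at 14.3% and 27.1% in 344SQP and 16.0% and 35.0% in 344SQR over 21 sites. Of 6 endothelial genes 4 had a site, with medians of 44.8% and 71.9% in 344SQP and 34.6% and 75.1% in 344SQR, with 1 called lower (Tie1) and 1 higher (Kdr). Pecam1 was at 63.3% and 72.9% in 344SQP and 34.1% and 75.0% in 344SQR, and Tie1 at 58.5% and 89.1% in 344SQP and 46.2% and 75.9% in 344SQR. Kdr was at 8.48% and 13.2% in 344SQP and 11.4% and 26.8% in 344SQR over 23 sites, and Eng at 31.1% and 71.0% in 344SQP and 35.1% and 75.1% in 344SQR over 19 sites. Pdgfra, Kdr and Eng were named after their values were seen.

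Replicate 2 was above replicate 1 in both lines in 4 of 7 member promoters (Cxcl12, Cxcl14, Cxcl16 and Ccl25) and in 36.1% of all promoters. In the nearly unmethylated Cxcl16 it was above by 1.20 points in 344SQP and 0.114 points in 344SQR. In Ccl25, also nearly unmethylated, it was above by 0.522 points in 344SQP and 0.0828 points in 344SQR. The same order was found in 4 of 4 endothelial, 2 of 4 fibroblast, 2 of 5 leukocyte and 2 of 7 epithelial genes.

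The tumors also differed in reads from the sex chromosomes. Chromosome Y had 47437 and 35071 calls in 344SQP, of 114884901 and 136525741 autosomal calls, and 89028 and 31130 in 344SQR, of 158029080 and 172601241. Calls on chromosome X came to 1.62% and 1.30% of the autosomal calls in 344SQP and 1.54% and 1.19% in 344SQR. Both shares were lower in replicate 2 of each line, the replicates in which Cxcl12 and Cxcl14 promoters were more methylated. The part that the marker genes' cell types and these reads have in the results of Cxcl12 and Cxcl14 was not tested.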

How the data were processed

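CpG methylation was measured by RRBS in 4 tumors from separate mice, 2 per line. Per the labels, the authors trimmed 50-base reads with Trim Galore 0.4.1 and cutadapt 1.9.1 and aligned them to mm10 with Bismark and Bowtie 1.1.2. The paper states that methylation percentages came from the extractor of Bismark and a script of the authors. The deposited files give every site a coverage (the count of its reads) and a methylated percent. From these the methylated and unmethylated reads were recomputed. Sites with at least 20 reads in every tumor were used, and their median coverage was 98 and 112 reads in 344SQP and 130 and 133 in 344SQR. Wilson intervals cover counting error only.

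Genes were those of GENCODE vM21 basic (55413 genes). Each site was compared by a logistic likelihood ratio, and regions by the signed Stouffer z score, with Benjamini-Hochberg adjustment over all regions. edgeR 4.0.16 (R 4.3.3, limma 3.58.1) tested the reads of a region by quasi-likelihood. Python 3.11.15, numpy 2.4.6, pandas 2.3.3, scipy 1.17.1, pysam 0.24.0 and matplotlib 3.10.9 were used, and the scripts were tested on simulated data. All members were named, with the called site of largest difference in each region. Other ligands and receptors were named if called, with 3 or more promoter sites and a change of 5 points or more, and of each marker list the 2 genes with the largest difference. The members and lists were chosen with earlier results of these data known. Alternatives were minimums of 10 and 50 reads, both strands of a CpG added, the first TSS only, the highest coverages left out, pooled reads, a minimum of reads of each kind, a replicate block, and leaving out each tumor.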

Additional observations from a re-analysis of the deposited data

How the results depend on the processing

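Of 128 differences of the members under an alternative, 92 kept their direction and, where tested, their side of the threshold, 13 reversed, and the others crossed the threshold or moved by more than the SD. By edgeR the counts of called member promoters, member gene bodies, other ligands and receptors were each 0, and the cause was not tested. At a minimum of 50 reads 3 receptors were called by Stouffer's z score, against 5 of the 8 measured at 20 reads. The only site of Cxcr2, which was among those 5, had as few as 49 reads, so Cxcr2 was not measured at 50. Over all promoters 7125 were called at 50 reads and 7750 at 20. With all tumors and 20 reads, 3 of 6 member gene bodies, 3 of 9 other ligands and 57 of 233 member sites were called. Of all sites in the genome 24.4% were called. With each tumor left out in turn, the calls ranged from 3 to 6 among member gene bodies, from 2 to 5 among other ligands, from 3 to 6 among receptors and from 41 to 89 among member sites. The differences then ranged from −6.91 to 20.5 points (Cxcl12 promoter), −9.33 to 16.0 (Cxcl14 promoter), −0.897 to 0.705 (Cxcl10 promoter), −0.390 to 0.133 (Ccl25 promoter), −9.09 to 11.7 (Cxcl14 gene body) and −3.16 to 4.85 (Cxcl10 gene body). The Cxcl10 promoter also reversed at a minimum of 10 reads (0.310 points) and by edgeR (log2 odds ratio 0.60), and the Cx3cl1 gene body with both strands added (1.55 points). The cause of the reversals was not tested. The labels give the tumors a replicate number, and whether it marks a shared batch is not stated. With a replicate block edgeR called 2 member gene bodies, Cxcl12 (adjusted p = 0.0390) and Ccl25 (adjusted p = 0.0126), and no member promoter, and over the genome it called 2444 promoters and 4293 gene bodies. The Mantel-Haenszel test with a replicate block called 1 member promoter lower (Cx3cl1) and 2 higher (Cxcl12 and Cxcl14), and no longer Cxcl16 (FDR = 0.0523), beside 5876 lower and 1673 higher of all 20135 promoters. The difference of replicate 2 from replicate 1 correlated between the lines at r = 0.663 over promoters and 0.608 over gene bodies, and at 0.811 over promoters with at least 5 sites. Genes whose sites had few reads could not be compared, and 3 of the members had no qualified site.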
